A study of Mus musculus with 4 samples.

Results

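The small leucine-rich proteoglycans (SLRPs) and periostin are secreted proteins of the stroma, the connective tissue made by fibroblasts and other mesenchymal cells. The genes described here are those whose symbol in the deposited table of the cardiac cultures is one of 10 names. The rule uses no measured value, but the names were chosen with earlier results of these data known. These are the SLRP genes *Dcn*, *Bgn*, *Aspn*, *Lum*, *Fmod*, *Prelp*, *Omd*, *Ogn* and *Podn*, and *Postn*, and all 10 were found among the 24637 genes of the table. Messenger RNA had been sequenced in 4 libraries of mouse embryonic stem cells (ESCs) at day 9 of cardiac differentiation, 2 labelled WT (genotype Taf4+/+) and 2 labelled Taf4a-/- (genotype Taf4-/-). The study's methods describe the libraries of a genotype as biological replicates from independent ESC lines, derived from blastocysts of heterozygous parents, though the labels do not tie a library to a line. The ESCs had been kept on inactivated mouse embryonic fibroblast (MEF) feeders with LIF. The study's cardiac protocol grew embryoid bodies for 5 days in 20% serum and then kept them for 9 days on gelatin. Whether day 9 in the labels is counted from the plating on gelatin is not stated. With 2 libraries of each genotype, the p-values rest on the spread between these libraries. The spread of each gene was drawn towards that of genes with similar counts. The sources used here do not say whether feeders were removed before the cardiac protocol.

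A SLRP is a protein core of leucine-rich repeats, folded into a curved solenoid, and many carry chains of chondroitin, dermatan or keratan sulfate. Most bind collagen fibrils and control their diameter and spacing, and several also bind growth factors of the TGF-beta family. Periostin belongs to another family, the fasciclin-domain proteins, and links collagen to other matrix proteins and to integrins. It is a familiar product of the mesenchyme of the embryonic heart valves and of cardiac fibroblasts.

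The libraries held 21732746 to 27733034 reads on genes. The values below are normalized counts, that is reads on a gene divided by a size factor for its library. A read was worth 0.877 to 1.11 normalized counts. *Taf4a*, the targeted gene, gave normalized counts of 889 in WT replicate 1, 678 in WT replicate 2, 1722 in Taf4a-/- replicate 1 and 1799 in Taf4a-/- replicate 2. The null allele lacks only some of the exons, and a gene-level count sums all of them. The count was higher in the libraries labelled Taf4a-/- and does not check the labels, on which every direction below rests. Genes were tested with limma on log2(normalized counts + 1), over the 16926 genes whose mean was at least 10. Calls were made where the p-value, adjusted by the method of Benjamini and Hochberg, was under 0.05. Fitted changes are log2 fold changes of the libraries labelled Taf4a-/- over WT, given with ± their standard error (SE). In bulk RNA, fewer cells of a type and less RNA per cell cannot be told apart.

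Of the 10 genes, 9 passed the filter on the mean and 8 of these were called lower in the libraries labelled Taf4a-/-, against 17.3% of all genes tested, or 28.6% in either direction. By limma 0 members were called higher, also at an unadjusted p under 0.05 and in a fit of the reads with limma's voom, while 11.3% of all genes tested were called higher. The median log2 fold change of the 9 genes was -4.53, and that of all genes tested was -0.01. A fitted fall of at least 16-fold was seen in 7 of the 9 genes, among 289 genes in all (1.71% of those tested). The exceptions were *Postn*, which fell less, *Podn*, which was not called, and *Omd*, which was barely detected in either genotype.

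**Figure D1:**
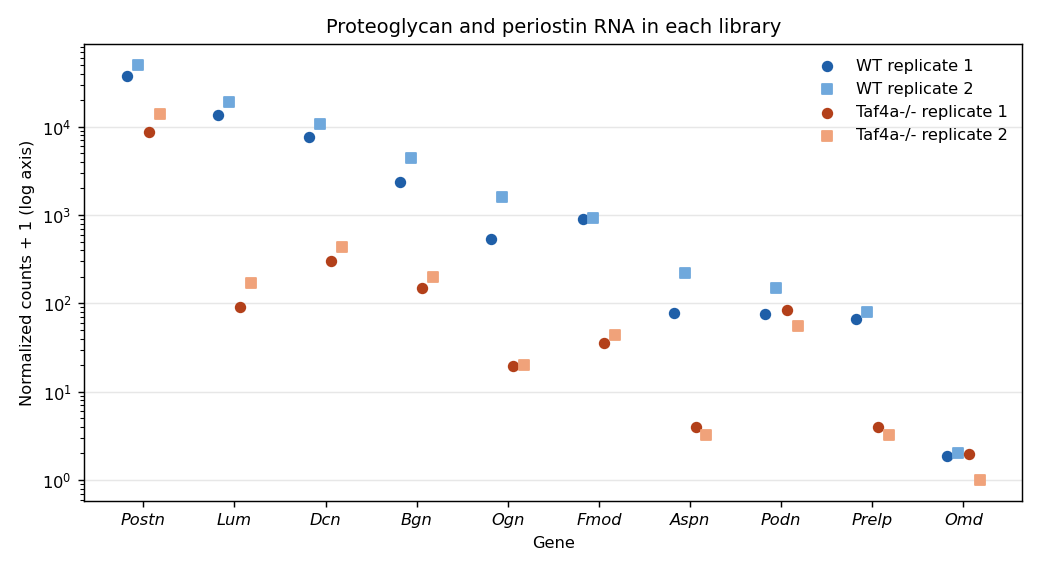
Normalized counts plus 1 on a log axis for the 10 genes, with 1 point for each of the 4 libraries. For 8 genes both libraries labelled Taf4a-/- lie below both WT libraries, the points of *Podn* overlap, and *Omd* has at most 1 read in any library.

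The class I proteoglycans come first. Decorin (*Dcn*), which coats collagen fibrils and binds TGF-beta, reached 7644 normalized counts in the first WT library and 10625 in the second. Replicates 1 and 2 labelled Taf4a-/- had 302 and 436, or 4.04% of the WT mean, and the replicates are given in this order throughout. The groups did not overlap. Of all genes tested, 36.6% had both libraries labelled Taf4a-/- below both WT libraries and 34.5% had them above. The fitted change was -4.63 ± 0.23 (SE, limma adjusted p = 0.000556).

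Biglycan (*Bgn*), the closest relative of decorin and a gene of the X chromosome, had 2336 and 4439 normalized counts in WT, and 147 and 196 in the libraries labelled Taf4a-/-. The WT libraries differed 1.90-fold, far less than the genotypes, whose log2 fold change was -4.24 ± 0.32 (SE, limma adjusted p = 0.00125). Asporin (*Aspn*), a class I member with an aspartate-rich stretch in place of the sugar chains, was much less abundant. It had 77.2 and 220 normalized counts in WT and 2.94 and 2.21 in the libraries labelled Taf4a-/-, which stand for 3 and 2 reads. Its fitted log2 fold change was -5.21 ± 0.59 (SE, limma adjusted p = 0.00341). With so few reads the fitted value depends on the pseudocount, and it was -3.49 with a pseudocount of 10. Summed reads gave a 54.9-fold ratio of WT to the libraries labelled Taf4a-/-, with a 95% exact interval from 23.3 to 170 that covers counting error only.

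The class II proteoglycans, several of which carry keratan sulfate, include the steepest fall. Lumican (*Lum*), which sets fibril spacing in the cornea and is made by many fibroblasts, had 13515 and 18826 normalized counts in WT. It had 89.1 and 169 in the libraries labelled Taf4a-/-, or 0.799% of the WT mean. Its fitted change of -7.01 ± 0.32 (SE, limma adjusted p = 0.000556) was the 30th lowest of all genes tested. Fibromodulin (*Fmod*), which shares binding sites on collagen with lumican, had 893 and 934 normalized counts in WT, the closest agreement of any member tested. It had 34.3 and 43.1 in the libraries labelled Taf4a-/-. The fitted change was -4.53 ± 0.22 (SE, limma adjusted p = 0.000556).

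*Prelp*, whose product anchors basement membranes to collagen, had 65.8 and 77.9 normalized counts in WT and 2.94 and 2.21 in the libraries labelled Taf4a-/-. These last values are again 3 and 2 reads. The ratio of summed reads was 27.5-fold, with a 95% exact interval from 11.5 to 85.8, and the fitted log2 fold change was -4.35 ± 0.44 (SE, limma adjusted p = 0.00264). With a pseudocount of 10 the fitted value was -2.70, still called. Osteomodulin (*Omd*), known from bone and tooth, had 1, 1, 1 and 0 reads in the 4 libraries in the order used above. It was not tested in the comparison, and no difference was detectable at this depth.

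Osteoglycin (*Ogn*), a class III proteoglycan also called mimecan, had 537 and 1608 normalized counts in WT and 18.6 and 18.8 in the libraries labelled Taf4a-/-. The libraries labelled Taf4a-/- were nearly equal while the WT libraries differed 3.00-fold, the widest gap between WT libraries among the members tested. The fitted change was -5.56 ± 0.50 (SE, limma adjusted p = 0.00193). Leaving out WT replicate 1 made it -6.35 and leaving out WT replicate 2 made it -4.77, both called. *Aspn*, which lies in the same gene cluster, moved alike, with -5.96 and -4.46. So did *Bgn*, on another chromosome, with -4.70 and -3.78.

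Podocan (*Podn*), a class V proteoglycan known from smooth muscle and kidney, was the 1 member tested that was not called. It had 75.4 and 149.6 normalized counts in WT, and 84.2 and 54.2 in the libraries labelled Taf4a-/-. WT replicate 1 lay below the higher of the libraries labelled Taf4a-/-, so the groups overlapped. Its fitted change of -0.65 ± 0.42 (SE) was not called (limma adjusted p = 0.286), and leaving out WT replicate 2 or 1 moved it to -0.16 or -1.14. This does not show that *Podn* was equal in the genotypes.

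Periostin (*Postn*) was the most counted member, with 37073 and 50301 normalized counts in WT, where it was the 28th and the 20th most counted gene. In the libraries labelled Taf4a-/- it had 8815 and 14092 and was the 323rd and the 137th. All values in WT were above those of the other genotype, and 26.2% of the WT mean was left. The fitted change was -1.95 ± 0.27 (SE, limma adjusted p = 0.00553). Without WT replicate 2 it was -1.73 and no longer called (limma adjusted p = 0.0544).

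**Figure D2:**
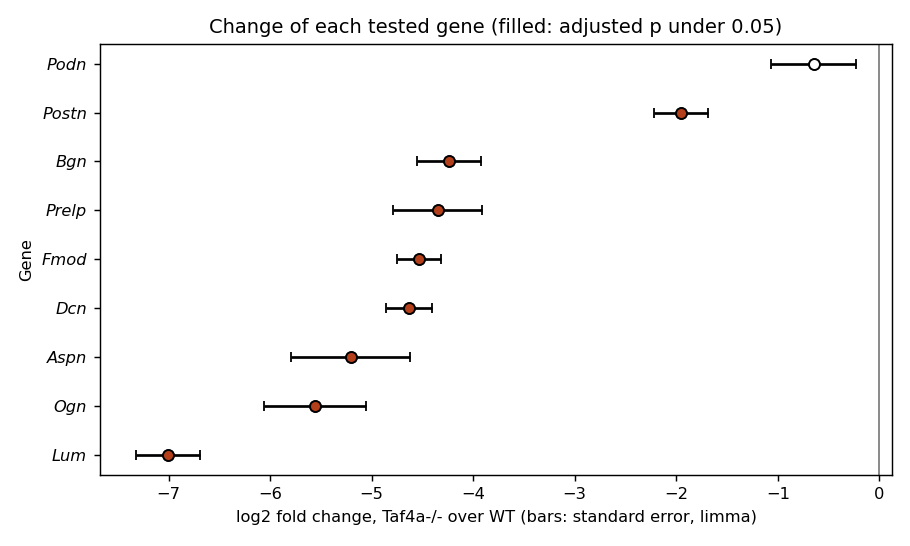
The log2 fold change of the libraries labelled Taf4a-/- over WT for the 9 genes tested, with bars for the standard error from limma and filled points for an adjusted p under 0.05. Of the genes, 7 lie beyond -4, *Postn* is at -1.95, and *Podn* at -0.65 is the only open point.

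Counts of different genes can be set side by side only per length, so reads were also scaled to the length of the merged exons and to the reads of the library (RPKM). On this scale *Lum* led in WT with 268 and 356 RPKM, followed by *Postn* with 195 and 252 and *Dcn* with 162 and 215. Both WT libraries had this order, although the ranges of *Postn* and *Dcn* overlapped. *Bgn* was next with a mean of 37.9 ± 15.5 (SD, n = 2). *Ogn* with 8.69 and 24.8 and *Fmod* with 11.1 in each did not differ beyond their spread. *Aspn*, *Podn* and *Prelp* lay between 0.736 and 3.68, and neighbours among these overlapped.

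The order changed in the libraries labelled Taf4a-/-. *Postn* led with 47.4 and 74.8 RPKM, and *Dcn* was next with 6.56 and 9.36. *Lum*, with 1.81 and 3.39, overlapped *Bgn* with 1.74 and 2.29. *Podn*, the 8th in WT, was the 5th, with 0.842 and 0.535, and overlapped *Fmod* with 0.437 and 0.543. *Ogn* had 0.308 in each of these libraries, and *Aspn*, *Prelp* and *Omd* had at most 0.053.

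**Figure D3:**
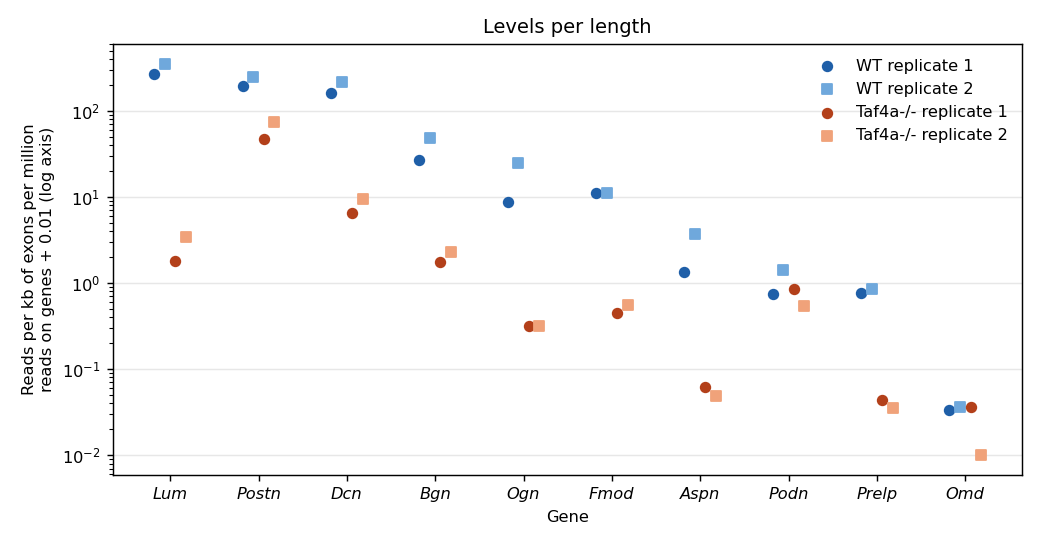
Level per length (RPKM over merged exons) plus 0.01, on a log axis for each library, with genes in the order of their WT mean. *Lum* leads in WT and comes after *Postn* and *Dcn* in the libraries labelled Taf4a-/-, where *Postn* at 47.4 and 74.8 stands above all others.

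The uneven falls showed as ratios between genes of the same library, which do not depend on scaling. The ratio of *Lum* to *Postn* normalized counts was 0.365 and 0.374 in WT, and 0.0101 and 0.0120 in the libraries labelled Taf4a-/-. That of *Dcn* to *Postn* was 0.206 and 0.211 in WT and 0.0342 and 0.0309 in the libraries labelled Taf4a-/-. For *Lum* to *Dcn* the values were 1.77 in each WT library, against 0.295 and 0.388. In each of the 3 pairs the WT libraries were nearly equal and both libraries labelled Taf4a-/- lay below them. The near-equality in WT belongs to these pairs, as WT replicate 2 over replicate 1 was 3.00-fold for *Ogn* and 1.05-fold for *Fmod*. With 2 libraries against 2, the two-sided exact permutation test cannot go below p = 0.333, which was its value for each pair and after adjustment over the 3 pairs. As a share of all normalized counts on the 10 genes, *Postn* made up 59.6% and 57.7% in WT and 92.8% and 93.9% in the libraries labelled Taf4a-/-. This share is not scaled to length, and *Postn* has 7838 exon bases against 2075 for *Lum*, which led per length in WT.

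**Figure D4:**
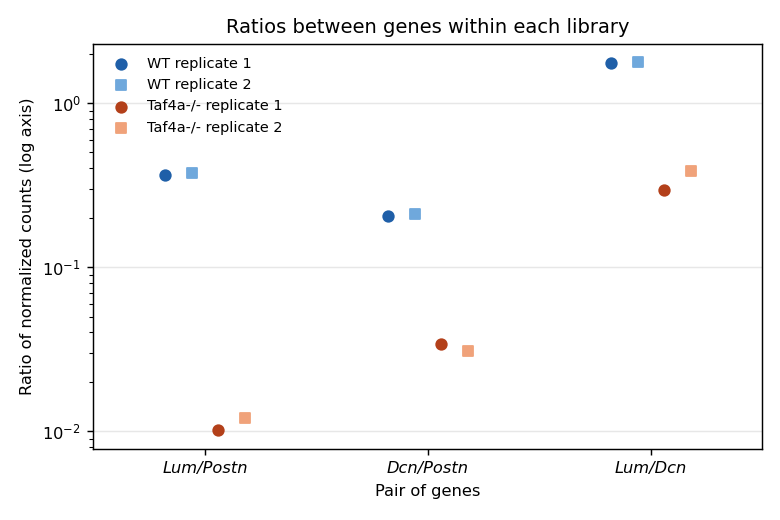
Ratios of normalized counts between 3 pairs of genes within each library, on a log axis. For *Lum* to *Postn* the WT points at 0.365 and 0.374 lie far above those at 0.0101 and 0.0120 of the libraries labelled Taf4a-/-, and all 3 ratios are lower there.

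Libraries of a genotype also differed from each other. All 9 genes tested had more normalized counts in WT replicate 2 than in WT replicate 1, from 1.05-fold for *Fmod* to 3.00-fold for *Ogn*, with a median log2 difference of 0.48. Over all genes tested, 51.8% were higher in WT replicate 2, and the median difference was 0.02. Of the libraries labelled Taf4a-/-, replicate 2 was higher for 6 of the 9 genes, with a median log2 difference of 0.32. Over all genes tested these were 50.6% and 0.003. For the 8 genes called, each of these differences was smaller than the change between genotypes.

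Several of these genes sit in rows on the chromosome, in the NCBIM37 (mm9) build that the authors used. On chromosome 10, *Dcn* (96942245 to 96980777) and *Lum* (97028135 to 97035337) are followed on the same strand by *Kera* and *Epyc*, the genes of keratocan and epiphycan. *Kera* had 4.38 and 1.04 normalized counts in WT and 1.96 and 0 in the libraries labelled Taf4a-/-. *Epyc* had 5.26 and 5.20 against 0 and 1.11. Both were too low to be tested, so within this cluster the abundant genes fell and the others had few reads in any library. The nearest protein-coding genes of the table outside the cluster, chosen after the values were seen, were *Btg1*, 857 kb away, and *Atp2b1*, 1233 kb away. *Btg1* had a log2 fold change of -0.76 ± 0.17 (SE, limma adjusted p = 0.0227). That of *Atp2b1* was 0.11 ± 0.13 (SE, limma adjusted p = 0.522).

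On chromosome 13 lie *Ecm2*, *Aspn* (49639812 to 49662926), *Omd* (49678135 to 49687978) and *Ogn* (49703440 to 49719869). *Aspn* and *Ogn* fell, while *Omd* between them was near 0 and *Ecm2* had 4.16 to 14.9 normalized counts with overlapping groups. The 3 members are nested in *Cenpp*, a centromere protein gene on the other strand, with 0 shared exon bases. *Cenpp* had a log2 fold change of 0.34 ± 0.18 (SE, limma adjusted p = 0.213). *Nol8*, the next gene after *Ogn* and also chosen after its values were seen, was higher by 0.55 ± 0.12 (SE, limma adjusted p = 0.0238). On the other side of the cluster, *Tes3-ps* had -0.18 ± 0.23 (SE, limma adjusted p = 0.601).

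On chromosome 1, *Prelp* (135806881 to 135817991) and *Fmod* (135933831 to 135944854) lie beside *Optc*, the opticin gene. *Optc* had 14.9 and 24.9 normalized counts in WT and 32.3 and 11.1 in the libraries labelled Taf4a-/-. The fitted change was -0.02 ± 0.61 (SE, limma adjusted p = 0.985). An annotated transcript on the other strand covers 350 exon bases of *Prelp*, 9.68% of its exons, and reads there cannot be assigned without strand. Outside this cluster *Atp2b4* fell, with -1.85 ± 0.21 (SE, limma adjusted p = 0.00352), and *Btg2* was not called. *Bgn* (X, 70728941 to 70741272), *Postn* (3, 54165031 to 54194961) and *Podn* (4, 107687396 to 107704942) have no other member beside them. Of their tested neighbours *Haus7*, next to *Bgn*, fell, with -0.61 ± 0.17 (SE, limma adjusted p = 0.0421), and *Fam48a* and *Scp2*, beside *Postn* and *Podn*, were not called (0.25 and -0.04).

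The product of *Taf4a* is a subunit of TFIID, the complex that places RNA polymerase II at promoters and whose subunit TBP binds the TATA box. RefSeq start sites on GRCm38.p6, another build than that of the counts, were at hand for 8 of the 10 genes, with 10 promoters in all; *Dcn* and *Lum* had no entry. The sequences printed are those of *Postn*, *Fmod*, *Bgn* and *Podn*, picked with their fitted changes known. Of the 2 starts for *Postn* the downstream one is shown, the only one of them with TATAAA, and for *Podn* the upstream one. Each is the last 120 bases before the start, 5′ to 3′ on the strand of the gene, with the letters TATAAA in capitals where present.
Postn chr3:54360987-54361106 (plus strand): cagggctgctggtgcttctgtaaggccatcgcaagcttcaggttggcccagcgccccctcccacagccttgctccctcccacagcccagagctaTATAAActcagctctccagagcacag
Fmod chr1:134037134-134037253 (plus strand): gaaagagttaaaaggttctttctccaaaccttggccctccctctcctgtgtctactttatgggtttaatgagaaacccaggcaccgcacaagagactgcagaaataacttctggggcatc
Bgn chrX:73483481-73483600 (plus strand): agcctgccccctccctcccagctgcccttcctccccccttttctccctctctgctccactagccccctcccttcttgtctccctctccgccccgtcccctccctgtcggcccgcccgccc
Podn chr4:108031955-108032074 (minus strand): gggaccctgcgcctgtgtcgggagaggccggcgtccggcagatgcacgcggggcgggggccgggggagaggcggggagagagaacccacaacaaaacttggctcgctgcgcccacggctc

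The downstream *Postn* promoter held TATAAA with its first base 26 bases before the start, the usual place of a TATA box. It was the 1 promoter of the 10 with these letters on the strand of the gene between 40 and 20 bases before the start, where 1.87% of the 32851 promoters of the table hold them. Over 250 bases and both strands, TATAAA occurred in 3 of the 10 promoters, those of *Aspn*, *Ogn* and the downstream *Postn* start, and in 12.4% of all promoters. The letters TGANTCA, bound by AP-1, and the CArG box, bound by serum response factor, were in 0 of the 10 promoters, and in 6.75% and 1.47% of all promoters over the same length and both strands. *Aspn* and *Ogn*, whose promoters are not printed, had fitted changes of -5.21 and -5.56. A match of letters is a description of the window only, and its part in the changes was not tested.

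Other genes of both families were read from the same fit. Of 12 further SLRP and fasciclin genes, 8 were tested, 3 were lower and 0 higher (by limma, also at an unadjusted p under 0.05, and by voom). The median fitted change was -0.54. *Tgfbi*, the paralogue of periostin, had 6894 and 8820 normalized counts in WT and 3060 and 3360 in the libraries labelled Taf4a-/-. The fitted change was -1.28 ± 0.15 (SE, limma adjusted p = 0.00384). *Stab1*, a scavenger receptor with fasciclin domains, had a fitted change of -2.05, and *Podnl1*, the relative of podocan, one of -1.95. *Tsku*, a class IV SLRP that binds growth factors, had 983 and 1284 against 866 and 858 and was not called. *Stab2*, *Chadl*, *Nyx* and *Optc* were not called either, with log2 fold changes from -0.70 to 0.58, and *Chad*, *Ecm2*, *Kera* and *Epyc* were not tested.

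The enzymes that build the sugar chains moved in a narrower range. Of 27 tested genes of chondroitin, dermatan and keratan sulfate synthesis, 11 were lower, 1 was higher and 15 were not called. The median fitted change was -0.49. The deepest falls were in sulfotransferase genes, *Chst5* with -2.61 and *Chst2* with -2.49, both of which act on keratan sulfate, and *Chst11* with -1.66, which acts on chondroitin. *Chst15* was the most abundant gene of this list that was not called, at -0.31, and *B3gnt7* was the gene called higher, at 0.82. Neither *Xylt1* nor *Xylt2*, which start the chains, was called (-0.19 and -0.18). Whether the core proteins differ from the enzymes was not tested.

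Of 36 genes of collagen partners and fibril assembly, 22 were lower and 0 higher. The median fitted change was -1.23. Collagen VI, which binds decorin and biglycan, led the list. *Col6a2* had 6064 and 16851 normalized counts in WT and 187 and 185 in the libraries labelled Taf4a-/-, a log2 fold change of -5.76, and *Col6a1* had -4.69. *Lox*, which crosslinks collagen, had -4.85, and *Col1a1*, the main fibrillar collagen chain, -3.33. The WT libraries differed in these genes too, as *Col6a2* was over 2 times higher in WT replicate 2. *Fn1*, fibronectin, was the most abundant gene not called, with 0.42. At an unadjusted p under 0.05, 1 gene of this list was higher, and by voom 0. Of 24 receptors and ligands to which SLRPs or periostin bind, 15 fell and 0 rose (by limma, also at an unadjusted p under 0.05, and by voom). Their median fitted change was -0.83, the same with *C1qa* at the bound that 3 reads allow. *C1qa* and *C1qb* had the deepest falls of these. *C1qa* had 710.1 and 746 normalized counts in WT and 0 in both libraries labelled Taf4a-/-. *C1qa* and *C1qb* are also in the macrophage list below. *Tlr4* and *Tlr2*, receptors for soluble biglycan, had fitted changes of -3.98 and -2.20. Other receptors of the list moved less, with *P2rx4* at -1.47, and *P2rx7* at 0.05 and *Cd44* at -0.64 not called. *Lrp1*, an endocytic receptor, was the most abundant gene of the list that was not called, with -0.33.

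The labelled cell type, cardiac cells, was set against its markers, along with the other cell types that could hold stromal RNA. All 11 cardiomyocyte markers were lower, with summed normalized counts of 30502 and 27661 in WT and 3202 and 2951 in the libraries labelled Taf4a-/-, and a median log2 fold change of -2.87. The largest falls were those of *Actc1*, cardiac actin, with -4.58, and of the myosin light chain genes *Myl2* and *Myl7*, with -4.46 and -4.35. Of 22 fibroblast and mesenchymal markers, 13 were lower, 1 higher and 8 not called, with a median of -1.46. Their summed normalized counts were 434685 and 595702 in WT and 88041 and 97324 in the libraries labelled Taf4a-/-, and *Dpt* was at 0 in both of the latter. Within the list, *Thy1*, a fibroblast surface protein, had a fitted change of -3.45 and *S100a4* one of -4.73, both called. *Col1a2*, the other collagen I chain, had -3.77. *Pdgfra*, the PDGF receptor of mesenchymal cells, had 7098 and 5451 normalized counts in WT and 5012 and 6043 in the libraries labelled Taf4a-/- (log2 fold change -0.18, limma adjusted p = 0.468). *Tcf21*, a transcription factor of cardiac fibroblasts, and *Vim*, vimentin, had -0.50 and -0.06 and overlapped between genotypes. *Prrx1*, a transcription factor of mesenchyme, rose by 1.09 ± 0.12 (SE, limma adjusted p = 0.00326). The proteoglycan falls were thus measured beside lower collagen I and *Thy1*, beside *Pdgfra*, *Tcf21* and *Vim* values that overlapped, and beside higher *Prrx1*. The part of any cell type, MEF feeders included, was not tested.

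Markers of the other cell types moved in various ways. Of 9 epicardial and mesothelial genes, 3 were called lower and 2 higher (median fitted change 0.38). *Tbx18* and *Aldh1a2* rose by 1.74 and 1.78, *Msln* fell by 4.27, and *Wt1* at 0.93 was not called (limma adjusted p = 0.0631), nor was *Bnc1* at 0.38. Their summed normalized counts overlapped, with 9527 and 11226 in WT against 9444 and 10659. Of 10 smooth muscle and pericyte genes, 4 were lower, led by *Myh11* with -3.88, *Cspg4* with -3.27 and *Lmod1* with -2.72, and 1 was higher, with a median of -0.59. *Tagln* had -0.77 and was not called. The sums were 38914 and 63064 in WT against 30134 and 30162. Of 11 tested tendon, cartilage and bone genes, 1 was lower and 3 higher, with *Acan*, the large cartilage proteoglycan, at 2.66, *Alpl*, alkaline phosphatase, at 2.02 and *Col2a1* at -1.51. *Sox9* at 0.59 was not called. The median of these was -0.26, and the summed counts of the genotypes overlapped. All 12 macrophage genes were lower, with summed normalized counts of 12736 and 15878 in WT and 266 and 411 in the libraries labelled Taf4a-/-, where *C1qa* was at 0. Their median was -7.25, and *Cx3cr1*, a chemokine receptor, had 1462 and 2067 against 0 and 7.74. By limma 0 of 8 endothelial genes were called (median -0.16), with 2 lower at an unadjusted p under 0.05 and 1 called lower by voom, and their summed counts overlapped. *Kdr*, a VEGF receptor and the most abundant of them, had -0.33. Of 10 endoderm genes, 5 were lower, *Afp* with -8.07 and *Apoa1* with -7.46 among them, and *Alb* was at 0 in both libraries labelled Taf4a-/-. *Col4a1* at -0.41 was not called. The median was -1.13. Of 10 pluripotency genes, 8 were higher, with a median of 2.76 and sums of 5468 and 2828 in WT against 15894 and 18178. *Esrrb*, *Dppa3* and *Dppa5a* led with 3.48, 3.36 and 3.21, and *Tdgf1* at 1.91 was not called (limma adjusted p = 0.0600). The part of these cell types in the falls of the proteoglycans was not tested.

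**Figure D5:**
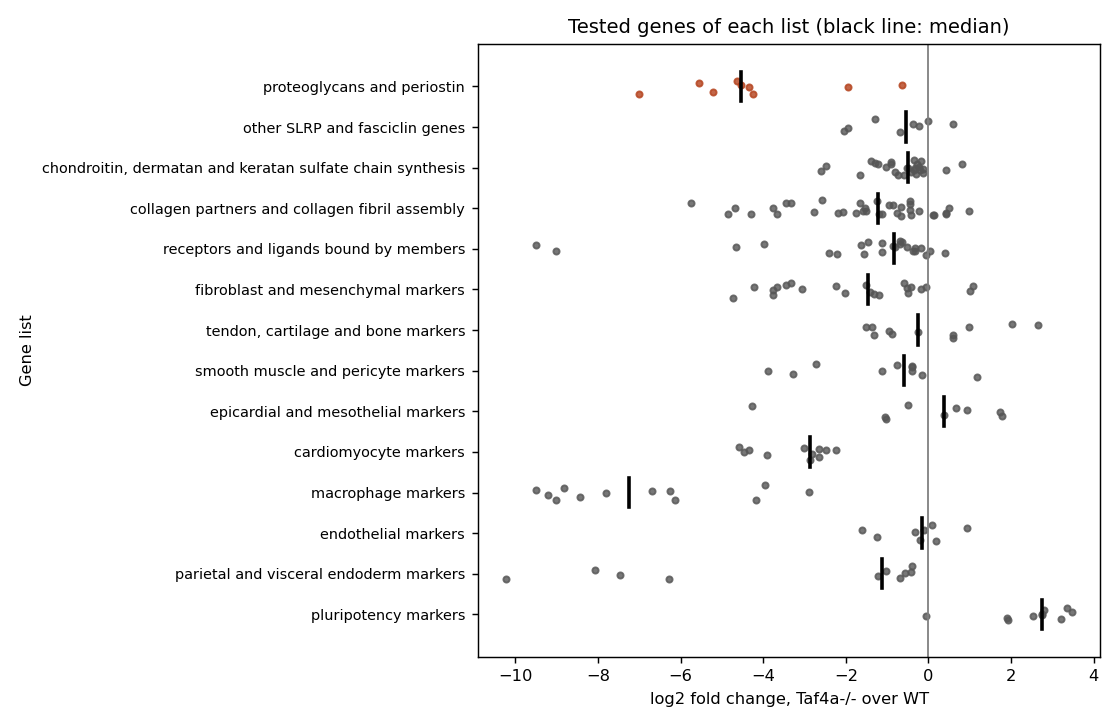
The log2 fold change of the libraries labelled Taf4a-/- over WT for each tested gene of the lists, with a black line at the median of each list. The median of the proteoglycans and *Postn* is -4.53, against -1.23 for collagen partners, -1.46 for fibroblast markers and -2.87 for cardiomyocyte markers. The medians of the other lists run from -7.25 for macrophage markers to 2.76 for pluripotency markers. Some genes are in more than one list.

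The genes most like the members were found by the root mean square distance, over the 4 libraries, between each gene's log2 values about its own mean and the median profile of the 9 members tested. The 5 nearest genes outside the family were *Fabp2* (distance 0.089), *Smpx* (0.109), *Il21r* (0.116), *Havcr2* (0.153) and *Tm7sf4* (0.153). *Fabp2*, a fatty acid-binding protein gene of the gut, had 39.5 and 55.1 normalized counts in WT and 0.979 and 1.11, 1 read each, in the libraries labelled Taf4a-/-. All 5 had at most 103 normalized counts in any library, so their profiles rest on few reads in the libraries labelled Taf4a-/-.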

How the data were processed

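Alignment was to mm9 (NCBI37) by TopHat, and the authors deposited gene counts that they had normalized with DESeq 2; the submitters' processing notes name CASAVA 1.8, TopHat 1.3.3, HTSeq 0.5.3p1 and DESeq, and the annotation release is not given in the sources used here. The deposited values are read counts divided by a size factor for each library, and 100% of them were whole multiples of the value of 1 read (tolerance 0.01 reads). Totals of 21732746 to 27733034 reads set the precision. All 24637 identifiers were found in the GENCODE annotation of NCBIM37. The members and gene lists were chosen with earlier results of these data known. Genes with a mean of at least 10 entered a limma fit (version 3.58.1, R 4.3.3) of log2(value + 1) on genotype, moderated by eBayes with its trend option. On this scale the fold change of a weakly counted gene is understated. Adjustment of p-values ran over all genes tested. The genes named are the members, *Taf4a*, every further SLRP and fasciclin gene, some fixed markers, genes overlapping a member and the 5 most similar genes. To these were added the 3 largest called changes and the most abundant uncalled gene of each list. Flanking genes, *Tlr2*, *Tlr4*, *P2rx4*, *P2rx7*, *Cd44*, *Xylt1*, *Xylt2* and *B3gnt7* were picked with their values known. A gene that this rule names among the receptors and ligands is not reported here. Figures were drawn with matplotlib 3.10.9 in Python 3.11.15. The closing section gives the effect of changing the pseudocount, the filter, the scaling, the threshold or the variance model, of a replicate block and of dropping single libraries. A fit of the reads by limma's voom joined these once the data had been seen.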

Additional observations from a re-analysis of the deposited data

How the results depend on the processing

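The count of members called lower was 8 under most alternatives, and 7 without WT replicate 2 (*Postn* lost) and at a mean of at least 50, where *Prelp* was not tested. No member was called higher in any. *Taf4a* stayed higher in all 13 alternative fits, with log2 fold changes from 0.98 to 1.37. Over all genes, 2928 were called lower and 1906 higher. Dropping the variance trend gave 1741 and 856, a threshold of 0.01 on the adjusted p gave 1119 and 331, and asking for a change of at least 2-fold gave 1936 and 747. In fits lacking a single library the ranges were from 1222 to 3038 lower and from 624 to 2476 higher; the lone library of a genotype was then assumed to vary like the other group. The lowest were 1222 and 745 without WT replicate 2, and 1921 and 624 without Taf4a-/- replicate 2. Without Taf4a-/- replicate 1 they were 1988 and 625. With the replicate block they were 2657 and 1536, with the same 8 members called. The labels give same-numbered libraries only a number in common, and whether they were handled together is not stated. Over all genes tested the correlation of their deviations was 0.01. Among the members the block made the SE smaller for *Dcn*, *Bgn*, *Lum*, *Ogn* and *Postn*. It made the SE larger for *Aspn*, *Fmod*, *Prelp* and *Podn*. Quantile normalization moved the median of all genes from -0.01 to 0.11 and gave 2448 lower and 2676 higher; the members' log2 fold changes then ran from -6.84 to -0.30, all below that median. Voom on the reads gave 2753 and 1813. The cause of these shifts was not tested, beyond fewer libraries and stricter thresholds. The planned edgeR and DESeq2 fits were not run. Depth limited *Omd*, *Aspn* and *Prelp*, with 0 to 3 reads in each library labelled Taf4a-/-.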
